A study of Mus musculus with 6 samples.

Results

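Gkn2, Aqp8, Phgr1, Crct1 and Pga5 are 5 mouse genes, most of them known from the epithelium of the stomach and bowel, that were selected because their signals differed between 2 hairpins directed against the same transcript, Dazl. They are 5 of 27677 named genes on the array, and each was read by 1 probe with 1 spot. All 5 passed the filter on dim probes, which kept genes well above background on at least 2 of 6 arrays; the 20214 such genes with an unflagged spot on every array were tested. The arrays held RNA from germ-cell-like cells, labelled primordial germ cells, made in culture from male mouse ES cells of mixed C57BL/6 and 129SV background that carry an Oct4-GFP transgene. Cells carried a control vector, the vector labelled sh1 (hairpin 1 here) or that labelled sh2 (hairpin 2 here), each vector with a tdTomato marker, and were sorted for both GFP and tdTomato. Each vector was measured once after 9 days and once after 12 days of differentiation, so every group holds 2 arrays, 1 per day. Germ cells make DAZL, the protein whose transcript both hairpins target, and use it to bind RNA; the study asked what its knockdown does to expression in such cells. Because the difference between hairpins chose the 5 genes, it is described below with no test.

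GKN2 is a gastrokine, a small protein secreted by surface mucous cells of the stomach. AQP8 is an aquaporin, a membrane channel for water that is abundant in colon epithelium, and PHGR1 is a small protein rich in proline, histidine and glycine found in intestinal epithelium. PGA5 is a pepsinogen, the inactive form of the stomach's acid protease pepsin, which chief cells secrete. CRCT1 is a cysteine-rich protein encoded among the genes of the cornified envelope, the protein shell of squamous epithelium such as skin and oesophagus. Crct1 is thus not a gene of glandular gut epithelium, although it is grouped with such genes here.

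Promoter sequences (build GRCm38.p6) were at hand for 3 of the genes, Gkn2, Aqp8 and Phgr1, and not for Crct1 and Pga5. These 3 genes also had the highest correlations with one another over the arrays. Each sequence runs 5′ to 3′ on the plus strand from 250 bases before the transcription start to 20 bases after it. Gkn2 lies on chromosome 6 (chr6:87373115-87373384), Aqp8 on chromosome 7 (chr7:123462044-123462313) and Phgr1 on chromosome 2 (chr2:118772524-118772793). Capitals mark every match, on either strand, to 1 of 7 motifs searched.
Gkn2: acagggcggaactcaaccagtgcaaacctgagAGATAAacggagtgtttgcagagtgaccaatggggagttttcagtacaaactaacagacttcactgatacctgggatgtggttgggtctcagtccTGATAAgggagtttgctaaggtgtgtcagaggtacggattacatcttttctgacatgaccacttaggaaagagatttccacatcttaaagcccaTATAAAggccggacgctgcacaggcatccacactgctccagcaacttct
Aqp8: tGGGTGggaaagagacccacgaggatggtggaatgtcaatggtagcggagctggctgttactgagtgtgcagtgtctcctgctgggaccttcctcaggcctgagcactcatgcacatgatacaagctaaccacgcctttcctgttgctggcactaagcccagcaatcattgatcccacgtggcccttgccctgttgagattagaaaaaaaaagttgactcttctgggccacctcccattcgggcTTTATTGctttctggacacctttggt
Phgr1: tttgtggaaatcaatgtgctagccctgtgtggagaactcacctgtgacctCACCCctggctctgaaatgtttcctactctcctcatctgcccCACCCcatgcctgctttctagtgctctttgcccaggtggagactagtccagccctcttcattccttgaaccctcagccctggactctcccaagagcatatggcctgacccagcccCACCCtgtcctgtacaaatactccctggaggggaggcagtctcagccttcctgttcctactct
The Gkn2 window held the TATA box letters TATAAA, starting 29 bases before the start, and the GATA letters AGATAA and TGATAA, starting 218 and 123 bases before it. Among 32851 promoter windows of this length, 12.9% held TATAAA, 10.5% AGATAA and 8.44% TGATAA. The Aqp8 window held TTTATTG, a match to the CDX letters TTTATNG that starts 6 bases before the transcription start and runs into the transcript. These letters were in 10.3% of all windows. The KLF letters CACCC occurred on the plus strand of Phgr1 at 200, 158 and 43 bases before the start and on the minus strand of Aqp8 near its far end, and 54.3% of all windows held them. No window of the 3 held either HNF4 motif, CAAAGTCCA or CAAAGGTCA, which were in 0.426% and 0.457% of all windows. No motif occurred in all 3 windows. GC content was 47.4% for Gkn2, 52.2% for Aqp8 and 55.2% for Phgr1.

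The arrays were alike in brightness. Their 75th percentile of signal lay between 629 and 745 units, and 70.3% to 73.3% of probes were well above background. The target Dazl read 1570 with the control vector at day 9 against 79.3 with hairpin 1 and 154 with hairpin 2, and 4190 against 145 and 178 at day 12. All 14 primordial germ cell markers on the array, among them Pou5f1, Dppa3 and Nanog, were well above background on all 6 arrays. Their summed level was 10903% to 12990% of the 75th percentile with the control vector, 11502% to 12376% with hairpin 1 and 11635% to 12750% with hairpin 2. The sum includes Dazl itself and does not show whether single markers differed. In the order control, hairpin 1, hairpin 2, Dppa3 read 9710, 4150 and 7220 at day 12. In the same order, Nanog read 4540, 5620 and 12200 at day 9, and 5180, 5130 and 4900 at day 12. Of all 27677 named genes, 18484 passed a filter for signal well above background on all 6 arrays, with an unflagged spot on each. Counts of gut genes near or under that share do not set them apart from all genes. Of the other intestinal genes on the array, 32 of 47 were well above background on all 6 arrays, among them Vil1, Krt20, Muc2 and Chga, and 9 on none. Of the other stomach genes, 13 of 23 were so on all 6 arrays, among them Muc1, Muc6 and Atp4a, and 3 on none. Those on none included Fabp1, Cdh17, Olfm4, Lgr5, Reg1, Reg3b and Reg3g of the intestine and Cblif, Anxa10 and Capn8 of the stomach, while Gkn1, the other classical gastrokine, was above background on 1 array only. Levels were measured in bulk RNA, so more cells of a type and more RNA per cell cannot be told apart.

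Gkn2 was the gene with the largest difference between hairpins of all 20214 tested. Its signal with the control vector was 25.7 at day 9 and 105 at day 12. With hairpin 1 it was 781 and 2230. With hairpin 2 it was 2.26, not well above background, and 30.1. The hairpin 1 arrays were thus the highest of the day and the hairpin 2 arrays the lowest, with the control between them. Relative to each array's 75th percentile, hairpin 1 stood 29.1-fold above the control at day 9 and 21.7-fold at day 12. Hairpin 2 stood at least 5.31-fold below the control at day 9 and 3.17-fold below it at day 12. Both comparisons use the same control array of the day, so they are not independent of each other. Set directly against each other, hairpin 1 exceeded hairpin 2 at least 155-fold at day 9 and 68.8-fold at day 12. Where a spot was not well above background, the fold is a bound, taken against the dimmest measured probe of that array. Over all 6 arrays the order ran from hairpin 1 at day 12 down to hairpin 2 at day 9. One pair of neighbours in it, hairpin 2 at day 12 and the control at day 9, differed by 0.21 (log2), less than the scanner's error of 0.22 for that difference.

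Aqp8 followed the same order within each day. Its signal was 92.9 with the control vector, 1120 with hairpin 1 and 51.3 with hairpin 2 at day 9, and 179, 1470 and 70.3 at day 12. All 6 spots were well above background. The ranges of the 3 vectors did not overlap, which in part restates the choice of the gene. The share of all genes with such a separation was not counted. Hairpin 1 stood 11.6-fold above the control at day 9 and 8.40-fold at day 12. Hairpin 2 stood 2.15-fold and 2.31-fold below the control. Between hairpins the fold was 24.8 at day 9 and 19.4 at day 12, the second largest difference of all tested genes. The mean log2 level relative to the 75th percentile was 0.94 ± 0.23 (SD, n = 2) with hairpin 1, -2.36 ± 0.56 with the control and -3.52 ± 0.48 with hairpin 2.

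Phgr1 was dimmer, and its values with hairpin 2 are close to the limit of the array. Its signal was 10.9 with the control vector, 66.9 with hairpin 1 and 4.03 with hairpin 2 at day 9, the last not well above background. At day 12 it was 20.4, 80.5 and 9.75. Hairpin 1 stood 5.89-fold above the control at day 9 and 4.03-fold at day 12. Hairpin 2 stood at least 2.25-fold below the control at day 9 and 1.90-fold below it at day 12. The scanner's error of these last differences was 0.61 and 0.33 (log2), for measured differences of -1.68 and -0.93. Hairpin 1 exceeded hairpin 2 at least 13.2-fold at day 9 and 7.67-fold at day 12.

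Crct1 differed from these 3 genes on the hairpin 2 side. Its signal was 45 with the control vector, 189 with hairpin 1 and 31 with hairpin 2 at day 9, and 163, 1140 and 144 at day 12. Hairpin 1 was the highest array of each day, 4.03-fold above the control at day 9 and 7.15-fold at day 12. Hairpin 2 stood 1.72-fold below the control at day 9. At day 12 it stood 1.03-fold below, a log2 difference of -0.04 with a scanner error of 0.21, so the 2 arrays could not be told apart. Hairpin 1 exceeded hairpin 2 6.93-fold at day 9 and 7.36-fold at day 12. Across the days, hairpin 1 at day 9 and the control at day 12 differed by 0.31 (log2), with a scanner error of 0.20, so their order is not settled.

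Pga5 went the other way, with hairpin 2 the highest. Its signal was 118 with the control vector, 210 with hairpin 1 and 1120 with hairpin 2 at day 9, and 148, 251 and 1310 at day 12. The 3 vectors did not overlap, which again in part restates the choice and has no share over all genes beside it. Both hairpins lay above the control at both days. Hairpin 2 stood 8.01-fold above the control at day 9 and 9.74-fold at day 12, and hairpin 1 stood 1.71-fold and 1.73-fold above it. Hairpin 2 exceeded hairpin 1 4.69-fold at day 9 and 5.62-fold at day 12. The mean log2 level was 0.81 ± 0.32 (SD, n = 2) with hairpin 2, -1.55 ± 0.14 with hairpin 1 and -2.33 ± 0.12 with the control.

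**Figure D1:**
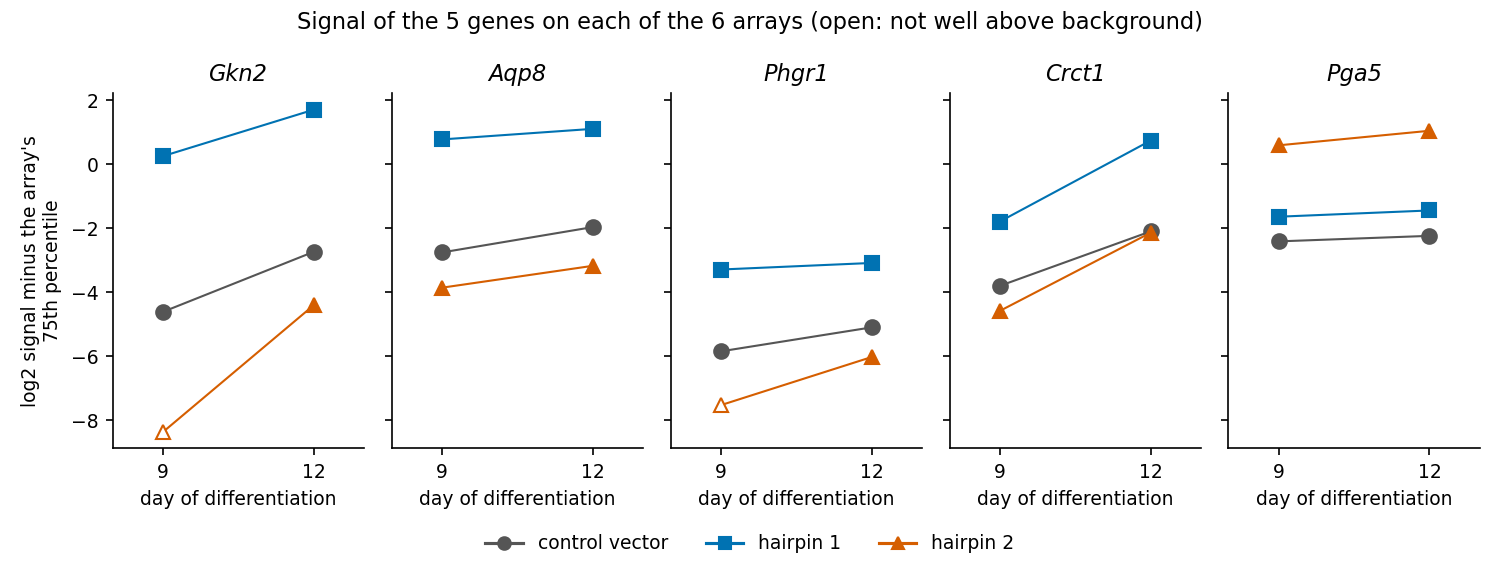
Signal of each gene on each array, as log2 of the signal minus the log2 75th percentile of the array (vertical axis), at day 9 and day 12 (horizontal axis); each symbol is 1 array, each line joins the 2 arrays of a vector, and open symbols were not well above background. Hairpin 1 is highest for Gkn2, Aqp8, Phgr1 and Crct1 at both days, and hairpin 2 is highest for Pga5.

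**Figure D2:**
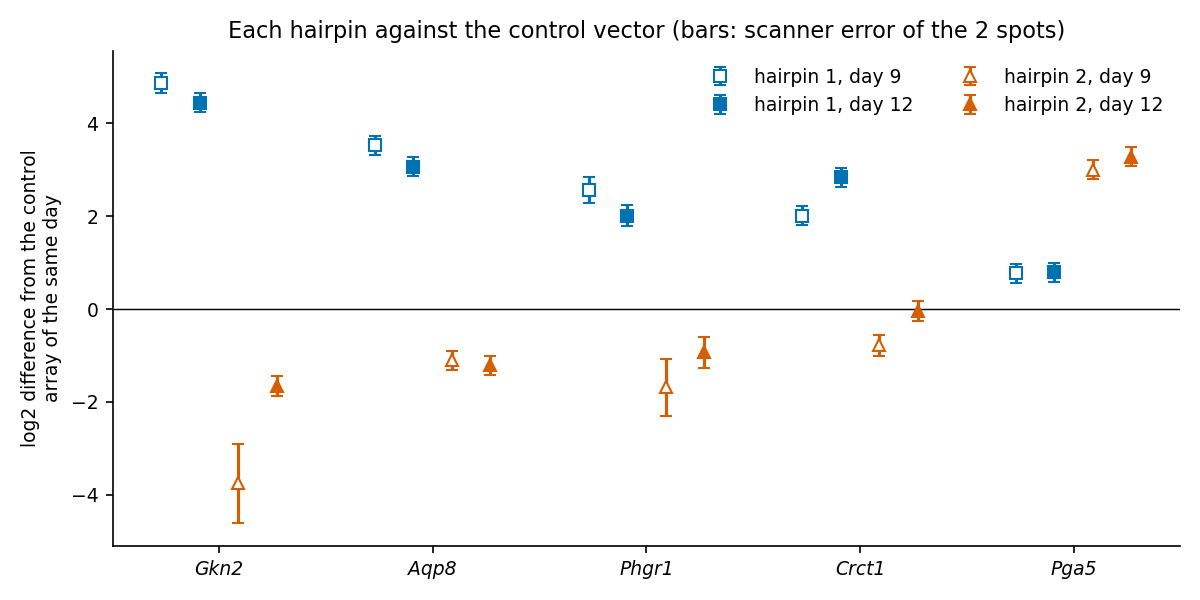
Log2 difference of each hairpin from the control array of the same day (vertical axis) for the 5 genes (horizontal axis); open symbols are day 9, filled symbols day 12, and bars are the scanner's error of the 2 spots. Hairpin 1 lies above 0 for all 5 genes; hairpin 2 lies below 0 for Gkn2, Aqp8 and Phgr1, at -0.04 for Crct1 at day 12, and near 3 for Pga5.

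Hairpin 1 was at least 2-fold above hairpin 2 at both days for 4 of the 5 genes, against 0.435% of all tested genes (88), and hairpin 2 was at least 2-fold above hairpin 1 for Pga5, against 0.702% (142). These counts restate the choice of the genes. Against the control, hairpin 1 was at least 2-fold higher at both days for the same 4 genes, where 0.707% of all genes were, and hairpin 2 was at least 2-fold lower for Gkn2 and Aqp8, where 0.475% were. Hairpin 2 was at least 2-fold above the control at both days for Pga5, where 0.411% of genes were. Both of these conditions held for Gkn2 and Aqp8 and for no other tested gene (0.00989%). As genes with the 2 largest hairpin differences were likely to meet them, these counts against the control also follow in part from the choice and are given as a description. By the mean of both days, the log2 difference hairpin 2 minus hairpin 1 was -7.36 for Gkn2, -4.46 for Aqp8, -3.59 for Phgr1, -2.84 for Crct1 and 2.36 for Pga5. In order of size these ranked 1, 2, 5, 9 and 17 of 20214, while the median of all genes was 0.02. The Gkn2 and Phgr1 means include the spots that were not well above background. In the limma fit over all genes, 0.00989% of genes (2) passed an adjusted p of 0.05 between hairpins and 2361 had an unadjusted p under 0.05. With another background correction, normexp with an offset of 50, the differences shrank to -3.66, -3.15, -0.38, -1.62 and 2.05 in the same order, around an all-gene median of 0.18. Phgr1 then differed by 0.05 at day 9, with hairpin 2 the higher, and by -0.81 at day 12.

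**Figure D3:**
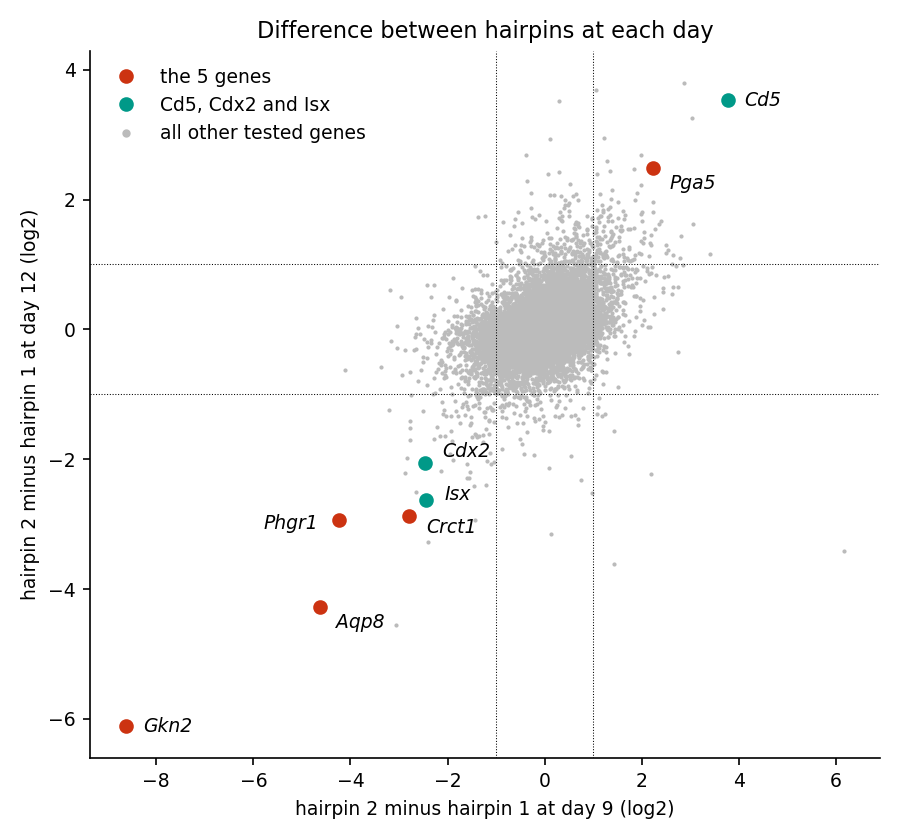
Log2 difference hairpin 2 minus hairpin 1 at day 9 (horizontal axis) and day 12 (vertical axis); each grey point is 1 tested gene, red points are the 5 genes, green points are Cd5, Cdx2 and Isx, and dotted lines mark 2-fold. Gkn2, Aqp8, Phgr1 and Crct1 lie at the lower left and Pga5 at the upper right, near Cd5 (3.77 and 3.53).

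The comparison of both hairpins with the control did not choose the genes. In the limma fit with day as a term, the knockdown minus control difference was 1.96 (log2, SE 0.85) for Pga5 with an adjusted p of 0.523, and Pga5 was higher than the control in 4 of 4 pairs. For Gkn2 it was 0.97 (SE 2.66, adjusted p 0.944 in limma), for Aqp8 1.07 (SE 1.59, adjusted p 0.875), for Phgr1 0.49 (SE 1.30, adjusted p 0.942) and for Crct1 1.01 (SE 1.03, adjusted p 0.796). These 4 genes were higher than the control in 2 of 4 pairs, both with hairpin 1. The difference between hairpins, which chose the genes, is part of the spread in this fit and widens their standard errors. None of the 5 genes passed, and across all genes 0% passed in limma while 2010 had an unadjusted p under 0.05. A fit that holds the vector as a replicate block takes the hairpin difference out of the spread. There Pga5 passed in limma with the same 1.96 (SE 0.15, adjusted p 0.0440), as did 0.0989% of all genes (20). The spread in that fit is the change of the vectors between the days, so its p-value does not cover the disagreement of the hairpins. Against the control, Pga5 differed by 3.14 with hairpin 2 and by 0.78 with hairpin 1. The hairpin 2 values also chose the gene, so the fit gives no test of the knockdown apart from the hairpin. The other 4 genes did not pass with the block, with limma adjusted p of 0.474 for Gkn2, 0.0936 for Aqp8, 0.504 for Phgr1 and 0.164 for Crct1.

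All 5 genes were higher at day 12 than at day 9 with all 3 vectors, where 20.6% of all tested genes were. The genes share the same arrays, so these are not 5 separate observations. Of the 15 differences, 11 were larger than the scanner's error at its 95% limit; the 4 that were not were Aqp8 and Phgr1 with hairpin 1 and Pga5 with the control and with hairpin 1. With normexp only Crct1 and Pga5 kept this, since Gkn2, Aqp8 and Phgr1 were lower at day 12 with hairpin 2. Crct1 rose 3.25-fold with the control vector, 5.78-fold with hairpin 1 and 5.44-fold with hairpin 2. The fit of the days without the replicate block keeps the difference between hairpins, which chose the genes, in its spread. That widens the standard errors of the 5 genes, so their failure to pass there says little about the days. The fitted day difference of Crct1 was 2.23 (log2, SE 0.97) with a limma adjusted p of 0.442. It passed in limma once the vector was a replicate block (SE 0.20, adjusted p 0.0127). Gkn2 was 3.67-fold higher at day 12 with the control vector, 2.74-fold with hairpin 1 and at least 6.14-fold with hairpin 2. Its fitted difference of 2.43 (SE 2.51) did not pass in limma without the block (adjusted p 0.755) or with it (adjusted p 0.0772). In the same order of vectors, Aqp8 differed by 1.73-fold, 1.26-fold and 1.61-fold, and Pga5 by 1.13-fold, 1.15-fold and 1.37-fold. For Phgr1 the folds were 1.68, 1.15 and at least 1.99. None of these 3 passed, with limma adjusted p of 0.900, 0.914 and 0.832, and 0.140, 0.426 and 0.214 with the block. Across all genes 0.148% (30) passed between the days, and 1.62% (328) with the block. The 3 arrays of a day were on 1 slide, and the effects of day and of slide cannot be told apart.

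**Figure D4:**
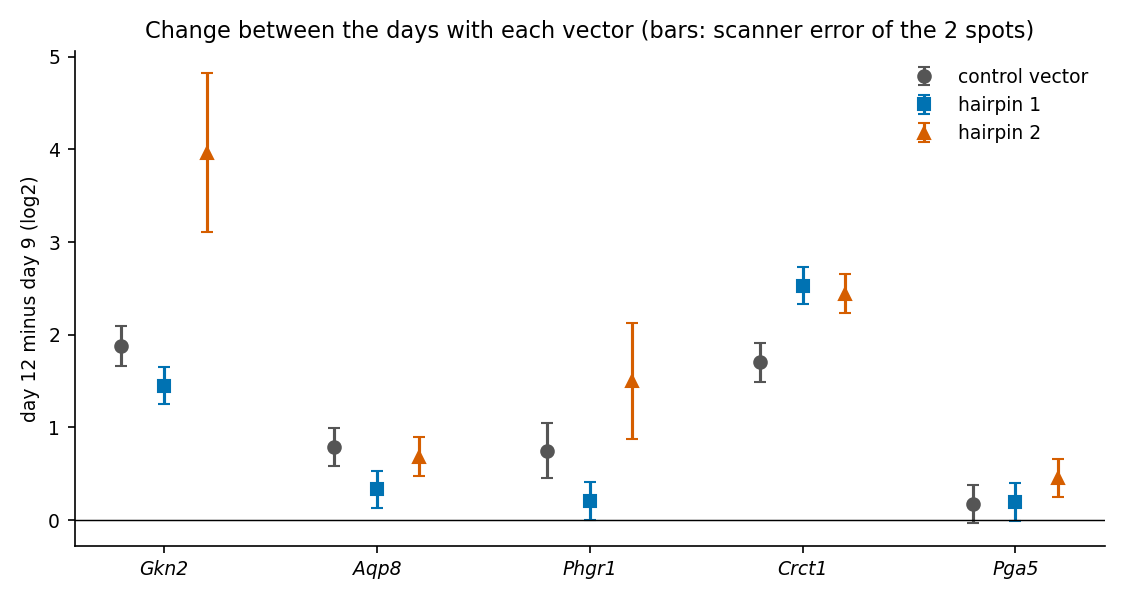
Log2 difference day 12 minus day 9 (vertical axis) for each gene with each vector (horizontal axis); each symbol is a difference of 2 arrays and bars are the scanner's error of the 2 spots. Crct1 lies between 1.70 and 2.53 with all 3 vectors, and Pga5 between 0.17 and 0.45.

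Over the 6 arrays, Gkn2, Aqp8 and Phgr1 had Pearson correlations of log2 levels of 0.96 to 0.99 with one another. Crct1 correlated with them at 0.83 to 0.91, and Pga5 at -0.54 to -0.23 with the other 4. These values describe 6 arrays that share 3 vectors and 2 slides, and the genes were chosen by one of those contrasts. Among 601 genes that spanned at least 2 on the log2 scale, those most like Aqp8 were Cdx2 (r = 0.99), Isx (0.99) and Phgr1 (0.98). CDX2 is the homeodomain factor that sets intestinal identity and is also needed in trophectoderm, and ISX is an intestine-specific homeodomain factor. Cdx2 read 62.7 with the control vector, 199 with hairpin 1 and 41.1 with hairpin 2 at day 9, and 76.7, 232 and 51.6 at day 12. It showed the order of Aqp8 at both days. Isx was well above background on 2 arrays only, those of hairpin 1, at 10.7 and 13.1. The genes most like Phgr1 were Gkn2 (0.99), Cdx2 (0.98) and Aqp8 (0.98). Those most like Gkn2 were Phgr1 (0.99), Elf5 (0.98), a trophoblast transcription factor, and Arhgef6 (0.97). Those most like Crct1 were Cryab (0.98), a small heat shock protein, Slco2a1 (0.96), a prostaglandin transporter, and Krt14 (0.95), a keratin of basal squamous cells. For control, hairpin 1 and hairpin 2 in turn, Krt14 read 247, 547 and 169 on the day 9 arrays and 1100, 2100 and 484 on the day 12 arrays, so it too was highest with hairpin 1 and higher at day 12.

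The genes most like Pga5 were Cd5 (r = 0.97), Col14a1 (0.97) and Cer1 (0.96), the last 2 well above background on 2 arrays each. For Cer1 these were the hairpin 2 arrays, through which it passed the filter. Col14a1 was brightest on the hairpin 2 arrays, at 10.8 and 17.4, against 2.67 to 5.63 on the others. The correlations of Col14a1 and Cer1 thus rest largely on dim spots and are no support for a shared pattern. Cd5, which encodes a surface receptor of T cells, is also a chromosomal neighbour of Pga5. On chromosome 19 it is the second gene after Pga5 in the RefSeq order, with Vps37c between them. Cd5 read 18.8 with the control vector, 15.4 with hairpin 1 and 238 with hairpin 2 at day 9, and 19.5, 24 and 258 at day 12. Both hairpin 2 arrays stood far above the other 4, with a log2 difference hairpin 2 minus hairpin 1 of 3.77 at day 9 and 3.53 at day 12, a mean fold of 12.5. Vps37c, a subunit of the ESCRT-I sorting complex, differed by 1.02 at day 9 and 0.11 at day 12. Cd6, the gene after Cd5, differed by 0.30 and 0.19. On the other side of Pga5, Vwce differed by 0.48 and 0.80 and Ddb1, a DNA damage binding protein, by 1.61 and 0.07.

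None of the nearest measured neighbours of the other 4 genes differed 2-fold the same way at both days. In all, 30 neighbours were measured, 3 on each side of each gene, with a median difference of 0.13 between hairpins. Cd5 was the only one past 2-fold at both days. Over all tested genes, 0.435% were 2-fold higher with hairpin 1 at both days and 0.702% with hairpin 2. The lack of such differences among the other neighbours therefore does not set them apart from all genes. Gkn3, the gastrokine gene next to Gkn2, differed by 0.42, with hairpin 2 the higher. Next to Aqp8, the 6 neighbours lay between -0.17 and 0.26. Beside Crct1, the late cornified envelope gene Lce1m differed by 0.54, opposite in sign to Crct1, and Lce3c was not well above background on either hairpin 1 array. The neighbours of Phgr1 ranged from -0.59 for Plcb2, well above background on 2 arrays, to 0.34 for Pak6. Neighbours were examined after the values of the 5 genes were known.

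**Figure D5:**
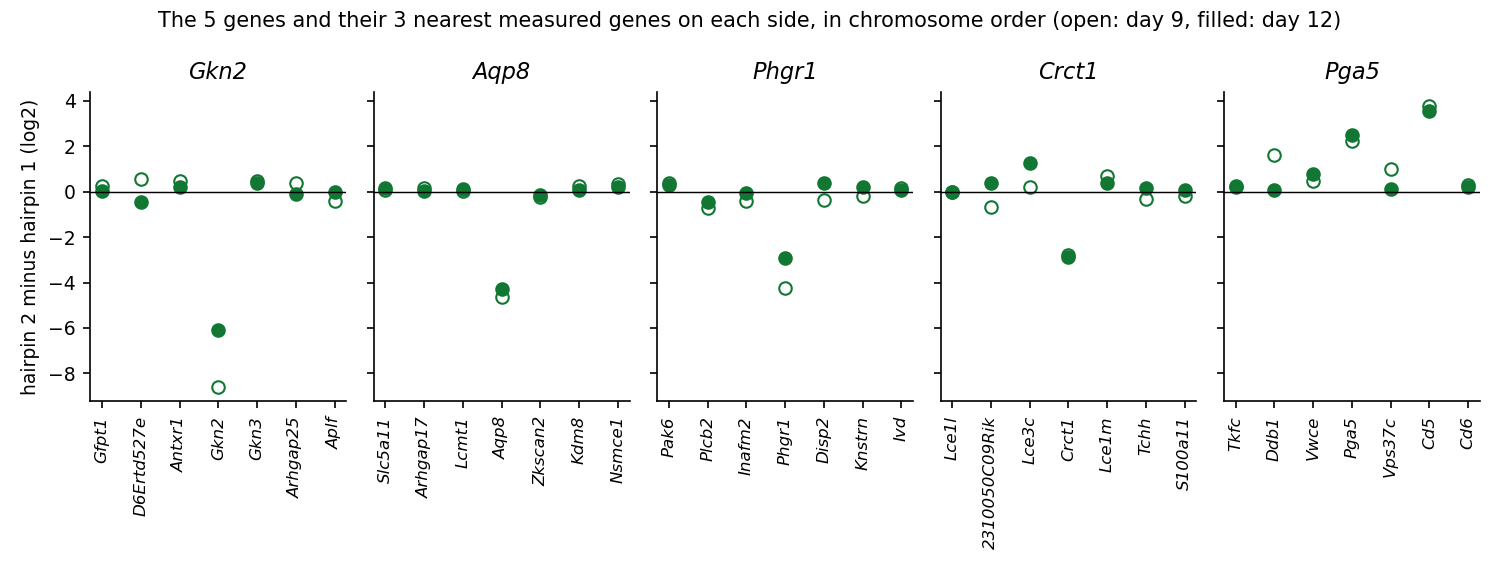
Log2 difference hairpin 2 minus hairpin 1 (vertical axis) for each of the 5 genes and its 3 nearest measured genes on each side in chromosome order (horizontal axis, spacing not to scale); open circles are day 9 and filled circles day 12. Cd5, next but 1 to Pga5, reaches 3.77 and 3.53, and the other neighbours stay under 2-fold on at least 1 day.

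Most other genes of gut epithelium on the array did not show these differences. Of 19 other stomach genes tested, 0 were 2-fold apart in one direction at both days, and their median difference hairpin 2 minus hairpin 1 was 0.14. The largest in size were Vsig1, a surface protein of stomach epithelium, at least 1.43-fold higher with hairpin 1, and Tff2, a trefoil peptide, at least 1.94-fold higher with hairpin 2. Both are bounds, since the other hairpin's spots were not well above background. Of 37 other intestinal genes, 1 was higher with hairpin 1 at both days and 1 with hairpin 2, with a median of 0.07. The first was Muc13, a membrane mucin, whose day 9 signals were 14.3 (control), 56.4 (hairpin 1) and 29.4 (hairpin 2), followed by 25.1, 85.4 and 21.1 at day 12. The second was Slc5a1, the sodium and glucose transporter, with signals of 20, 10.8 and 27.1, then 27, 11.9 and 25.3, in the same order. Among 21 transcription factors of the gut, Cdx2 (-2.26) and Isx were 2-fold higher with hairpin 1 at both days and 0 with hairpin 2. Isx was well above background on the hairpin 1 arrays alone, through which it passed the filter, and was at least 2.07-fold higher there by the mean of both days. Gata6, with -0.89, and Foxa3, with 0.85, came next. None of these other genes passed in limma between hairpins, though Cdx2 and Isx lay just over the limit (limma adjusted p 0.0501 for each). The background shares are the 0.435% and 0.702% given above.

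The families of Aqp8 and Pga5, the aquaporins and the aspartic proteases, gave little of the same pattern. Of 8 other aquaporins, 0 were 2-fold apart the same way at both days. The largest difference was that of Aqp1 (1.26), with hairpin 2 higher, opposite to Aqp8, and 5 of its 6 spots well above background. Aqp9 was well above background at day 12 only, where it differed by 0.65. Of 7 other aspartic proteases, Bace2, well above background on 4 arrays, was higher with hairpin 1 (-1.94), opposite to Pga5, while Pgc, the other pepsinogen, differed by 0.65. Of 14 other squamous genes, Krt14 (-1.95) and Dmkn (-1.52) were 2-fold higher with hairpin 1 at both days, the direction of Crct1. Over all tested genes 0.435% were so. Dmkn encodes a protein secreted by keratinocytes. Sbsn followed at -1.07. Of 22 other squamous genes on the array, 11 were well above background on all 6 arrays, among them Krt5, Krt14, Krt1, Krt10 and Trp63, and 6 on none (Ivl, Flg, Sprr1b, Sprr3, Dsg3 and Dsc3). The share of all genes well above background on all 6 arrays, given above, was higher. In the day comparison with the vector as a replicate block, 1.62% of all genes passed. Krt14 (1.88, SE 0.14, limma adjusted p 0.0107) rose there as Crct1 did. Tff1 was the 1 stomach gene that passed with the block (1.30, SE 0.13, limma adjusted p 0.0151). It also passed without the block (limma adjusted p 0.0386). Krtdap passed with the block (limma adjusted p 0.0475). However, Krtdap was well above background only on the 3 day 12 arrays, which alone took it past the filter. Its day 12 level was at least 1.96-fold higher, and it is no support for a change of the list.

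Levels of markers of other cell types were compared in the same way, and none passed in limma between hairpins. Over all tested genes, 10637 of 20214 were higher with hairpin 2 than with hairpin 1. Of 13 trophectoderm genes, 11 were lower with hairpin 2 than with hairpin 1, with a median of -0.62. Cdx2, also counted among the gut factors above, and Elf5 were 2-fold apart at both days. Their summed level, as a percentage of the array's 75th percentile, was 3356 to 3609 with hairpin 1, 2157 to 2370 with the control and 1429 to 2159 with hairpin 2. Most of this sum was Krt7, a keratin that is also on the list of epithelia in general. At day 9 Krt7 read 12800 with the control, 21000 with hairpin 1 and 8970 with hairpin 2. The sum thus says little of the other genes on the list. In the order control, hairpin 1, hairpin 2, Elf5 read 28.2, 51.2 and 20.5 on the day 9 arrays, then 40.4, 84.9 and 24.9. Of 17 genes of epithelia in general, 0 were 2-fold apart at both days, but the summed level was 34739 to 38921 with hairpin 1 against 24910 to 28669 with the control and 22678 to 25674 with hairpin 2. Most of this sum was Krt18 and Krt8. In the order control, hairpin 1, hairpin 2, Krt18 read 88100, 131000 and 76300 at day 9, and Krt8 read 35000, 54400 and 32800. Both sums therefore reflect a few keratins and share Krt7. Krt7 (-1.03) and Ocln (-0.94) differed most. Of 15 fibroblast genes the median was 0.71, with Dcn (1.31) 2-fold higher with hairpin 2 at both days, and their summed level was 3787 to 4563 with the control, 4004 to 4271 with hairpin 1 and 4488 to 5126 with hairpin 2, so the control overlapped both. Pdgfra went the other way (-1.08). Of 18 genes of yolk sac and liver endoderm, Cubn (-2.40) was 2-fold higher with hairpin 1 at both days, and Apoa1 (1.61), Apob (1.43) and Cer1 with hairpin 2, with a median of 0.38. Cer1 was well above background on the hairpin 2 arrays alone, through which it passed the filter, and was at least 4.35-fold higher there. Afp, Apoa1 and Fgb of that list were also higher in the knockdown than in the control with the replicate block (2.27, 2.22 and 2.31, limma adjusted p 0.0462, 0.0462 and 0.0440), the same fit in which Pga5 passed. That fit leaves the disagreement of the hairpins out of the spread. Of 10 blood and endothelial genes, 0 were 2-fold apart at both days, with a median of 0.25. The part of these markers in the differences of the 5 genes was not tested.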

How the data were processed

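Total RNA from 6 samples was hybridised to Agilent 1-colour arrays. Per the file headers, the deposited scanner files hold spot intensity from Feature Extraction 9.1.3.1, detrended and background-subtracted but not normalized between arrays, where a surrogate replaces signals at background. The authors' deposited table holds a ratio, the signal over its array's median, and both kinds of deposited file hold a quality score, used here only as a key between them.

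Here log2 intensity was set relative to each array's 75th percentile. Genes well above background on at least 2 arrays were kept, each by its brightest probe. Names came from the accession on the array, or from a symbol or synonym, as for Phgr1, through RefSeq. Over all genes, limma 3.58.1 (R 4.3.3) gave linear models, two-sided, with Benjamini-Hochberg adjustment. Hairpins were compared with day and vector as terms, and knockdown and days with day and knockdown as terms. The pairing of day 9 and day 12 arrays by vector was checked through the correlation, across genes, of deviations from the day's mean. The same vector gave r of 0.38, 0.54 and 0.26 and different vectors -0.34 to -0.02. Deviations from a day's mean push r between different vectors below that of the same vector whenever vectors differ. The check therefore cannot tell a pairing of cultures from an effect of the vector itself. As an alternative, the vector was also fitted as a replicate block. The scanner files' own names number the hairpins 2 and 3 where the labels say 1 and 2; the labels were followed. Vector and position on the slide cannot be told apart. The labels name no separate cultures, so a p-value covers the spread among these samples alone, which may be technical, and the number of arrays limits the precision. A scanner error covers 1 spot on 1 array; 245 probes spotted at least 5 times varied by a median SD of 0.0776 (log2) within an array.

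The 5 genes, the gene lists and the motifs were chosen with earlier results of these data known, and the promoter window with its sequence in view. Named from each list were up to 4 genes with the largest hairpin difference, and for each of the 5 genes the 3 with the highest correlation; Gkn1, Gkn3, Vil1, Krt20, Muc2, Chga, Muc1, Muc6, Atp4a, Krt5, Krt1, Krt10, Trp63, Tff1, Krtdap, Afp, Fgb, the absent markers and the neighbours were named outside that rule, after their values were seen. Alternatives were quantile normalization, another percentile, normexp, the authors' table, other filters, the mean of probes, another variance prior, each array left out and the replicate block.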

Additional observations from a re-analysis of the deposited data

Results flagged for a closer look

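For 4 genes the hairpins lay on opposite sides of the control array at both days, although both target Dazl. The log2 difference hairpin 2 minus hairpin 1 was -7.36 for Gkn2, -4.46 for Aqp8, -3.59 for Phgr1 and -2.84 for Crct1. The difference was not tested, since the genes were chosen by it. For Crct1 the hairpin 2 array of day 12 differed from the control by -0.04 (log2), within the scanner's error. Groups of 2 arrays are too small for a check of outlying samples.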

How the results depend on the processing

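Quantile normalization, the percentile over probes above background on all arrays, the authors' table and the mean of probes kept all 5 genes at least 2-fold apart between hairpins at both days. With normexp 3 did (Gkn2, Aqp8 and Pga5), and with a filter for all 6 arrays 3 did, as Gkn2 and Phgr1 then left. With normexp the differences were -3.66 (Gkn2), -3.15 (Aqp8), -0.38 (Phgr1), -1.62 (Crct1) and 2.05 (Pga5); its offset of 50 compresses dim signals by construction. Leaving out 1 array, they ranged from -8.51 to -6.21 (Gkn2), -4.66 to -4.25 (Aqp8), -4.10 to -3.08 (Phgr1), -3.06 to -2.61 (Crct1) and 2.23 to 2.50 (Pga5). Higher at day 12 with all vectors were 2 of the 5 with normexp and 3 with the filter for all arrays. The fitted day difference of Phgr1 was -0.20 with normexp. Leaving out 1 array unbalances the vectors between the days, and the day difference then ranged from -0.11 to 4.81 for Gkn2, -0.69 to 1.95 for Aqp8, -0.40 to 2.02 for Phgr1 and -0.45 to 0.97 for Pga5; the knockdown difference ranged from -0.82 to 2.88 for Gkn2 and -0.41 to 1.41 for Phgr1, below 0 without either hairpin 1 array.

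Over all genes, hairpin calls numbered 1 with quantile normalization, 125 with normexp, 1 with no filter, 51 with the filter for all arrays, 71 with a trended robust prior and 0 to 819 with 1 array left out, against 2. Knockdown calls numbered 2, 8, 1 and 2 with normexp, that filter, the mean of probes and that prior, and 20 with the replicate block, against 0. Day calls numbered 1 with normexp, 0 with no filter, 328 with the replicate block and 0 to 20 with 1 array left out, against 30. Genes 2-fold higher with hairpin 1 numbered 13 with normexp, 136 with no filter and 53 with the filter for all arrays, against 88, and with hairpin 2 30 and 80 with normexp and that filter, against 142. The cause of these shifts was not tested. The replicate block changed the call for Pga5 against the control and for Crct1 between the days, and for no other of the 5. With 2 arrays per vector, 1 spot per gene and dim spots for Gkn2 and Phgr1 with hairpin 2, folds on that side are limits rather than measurements at day 9.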
